A study of Homo sapiens with 6 samples.

Results

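The Notch pathway was examined through 10 of its genes: the receptors NOTCH1, NOTCH2 and NOTCH3, the ligands JAG1, JAG2 and DLL1, the DNA-binding effector RBPJ and the targets HES1, HEY1 and HEY2. They were chosen by name, and every probe set that the platform annotation assigns to exactly 1 of them was kept, which gave 28 of the 54613 probe sets tested on the arrays. All 28 are accounted for, and no filter on low values was applied. The RNA came from ONS-76, an established human medulloblastoma cell line, in which KDM1A (also called LSD1), a demethylase of histone H3 lysine 4, had been knocked down. In the siKDM1A group (3 arrays, a to c) the cells were transfected with siRNA directed against KDM1A, and in the control group (3 arrays, a to c) they received transfection reagent without siRNA. The methods describe independent transfections. Both groups are the same untreated cell line apart from the transfection, and because the control held no siRNA, the loss of KDM1A and the delivery of an siRNA cannot be told apart. The labels state harvest at 48 h and the paper a later time. All values are log2 of the RMA-normalized probe set signal of the deposited table, and levels are compared between groups for 1 probe set, never between genes.

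In the Notch pathway, a ligand on one cell binds a receptor on its neighbour, the receptor is cut by proteases, and its intracellular part enters the nucleus. There it joins RBPJ, which otherwise sits at target genes with corepressors, and genes such as HES1, HEY1 and HEY2, which encode repressors of the basic helix-loop-helix class, are transcribed. KDM1A is known as a component of corepressor complexes that can act with RBPJ. In the developing cerebellum the pathway is known for its role in keeping granule neuron precursors undifferentiated, with NOTCH2 and HES1 as prominent members.

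The target promoters are shown first because RBPJ acts at the DNA motif TGGGAA. RefSeq promoter windows (GRCh38.p14, 250 bases before to 50 bases after the gene start) matched 8 of the 10 genes with 12 windows, of which 3 held TGGGAA on either strand and 0 held CACGTG, the E-box bound by HES and HEY class proteins. Those 3 windows follow 5′ to 3′ along the strand of the gene, with TGGGAA, or TTCCCA where the match is on the other strand, in capitals.
HES1, chr3:194135898-194136197, plus strand: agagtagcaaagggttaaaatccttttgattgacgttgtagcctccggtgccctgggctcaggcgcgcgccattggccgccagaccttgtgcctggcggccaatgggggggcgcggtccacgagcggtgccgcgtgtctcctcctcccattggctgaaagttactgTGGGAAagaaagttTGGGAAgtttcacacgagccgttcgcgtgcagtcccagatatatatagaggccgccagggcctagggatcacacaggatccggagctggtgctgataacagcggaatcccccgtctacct
HEY2, chr6:125749382-125749681, plus strand: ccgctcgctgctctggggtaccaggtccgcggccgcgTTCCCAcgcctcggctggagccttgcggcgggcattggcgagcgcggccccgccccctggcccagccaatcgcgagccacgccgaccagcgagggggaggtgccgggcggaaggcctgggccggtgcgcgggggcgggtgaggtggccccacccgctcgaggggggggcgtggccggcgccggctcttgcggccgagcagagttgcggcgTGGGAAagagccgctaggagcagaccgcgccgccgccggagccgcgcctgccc
RBPJ, 1 of its 5 windows, chr4:26319496-26319795, plus strand: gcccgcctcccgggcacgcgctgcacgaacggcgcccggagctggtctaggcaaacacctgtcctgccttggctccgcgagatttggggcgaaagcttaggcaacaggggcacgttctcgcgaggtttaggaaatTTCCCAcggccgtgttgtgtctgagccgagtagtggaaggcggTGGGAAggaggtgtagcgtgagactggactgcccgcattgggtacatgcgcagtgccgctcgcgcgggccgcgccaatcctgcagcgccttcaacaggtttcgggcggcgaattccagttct
In HES1 both matches lie on the gene's own strand, 84 and 70 bases before the start, so they run in the same direction. In HEY2 the matches begin 213 and 3 bases before the start, and in this RBPJ window 115 and 72 bases before it, each pair on opposite strands. Over all 35116 RefSeq windows, 24.0% held TGGGAA at least once, 3.80% held it 2 or more times and 7.26% held CACGTG. A match is a description of letters and not of a binding event. HEY1 and DLL1 have no window shown.

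The knockdown was visible on the arrays. KDM1A measured 6.25, 6.34 and 6.31 on the single probe set that names it in siKDM1A cells and 9.50, 9.57 and 9.49 in control cells. It was thus 9.33-fold lower after knockdown (limma adjusted p = 7.1e-07). Of the 5 probe sets of KDM5A, which the labels also name as the target, 0 passed by limma or ANOVA. At an unadjusted limma p under 0.05, 2 were lower, where 11.0% of all probe sets were lower. These were 226371_at (difference -0.39, limma adjusted p = 0.056) and 202040_s_at (-0.27, 0.14). The others, 230226_s_at, 215698_at and 226367_at, differed by -0.22, 0.05 and 0.06. Array medians lay between 5.09 and 5.16, and correlations between arrays between 0.991 and 0.998. Markers of cell types were read on the probe set of each gene with the highest mean. Over all genes read in this way, 3.45% rose and 5.46% fell by limma. At an unadjusted limma p under 0.05, 9.75% were higher and 14.4% lower. Of 7 measured granule neuron precursor and medulloblastoma markers, 4 lay above the median of every array and OTX2 was dimmer than the lower quartile of each. Of these markers ZIC1, ZIC2 and SOX2 fell. PAX6 (difference 0.12), BARHL1 (0.17), ATOH1 (-0.02) and OTX2 (-0.02) did not pass. The summed log2 level of the 7 was 44.2 to 44.4 in siKDM1A cells and 44.8 to 45.7 in control cells. Of 4 neural markers MAP2 rose (difference 1.12), and the other three, which did not pass, differed by 0.08 (NES), -0.19 (TUBB3) and -0.02 (SYP). Their sums were 28.9 to 29.7 in siKDM1A cells and 28.3 to 28.4 in control cells. The 4 epithelial markers had 0 calls by limma or ANOVA (2 at an unadjusted p under 0.05) but sums of 32.1 to 32.4 in siKDM1A cells and 31.1 to 31.6 in control cells. Of 4 endothelial markers PECAM1 rose (difference 0.35), while VWF (0.08), KDR (0.26) and CDH5 (-0.34) did not pass, the last pair with an unadjusted p under 0.05. Their sums were 23.4 to 24.0 in siKDM1A cells and 23.1 to 23.5 in control cells. Astrocyte, mesenchymal and leukocyte markers had 0 calls by limma or ANOVA, also at an unadjusted limma p under 0.05, their sums overlapped between the groups, and none of the 3 leukocyte markers lay above the median of every array. The part of these shifts in the results that follow was not tested, and in bulk RNA fewer cells of a type and less RNA per cell cannot be told apart.

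KDM1A knockdown was accompanied by opposite movements among the Notch ligands and a lower level of RBPJ. JAG1 rose on 2 of its 6 probe sets, up to 1.98-fold, while DLL1 fell 1.81-fold on 1 of 2 probe sets and JAG2 fell 1.59-fold and 1.52-fold on both of its own. RBPJ fell on 2 of 3 probe sets and NOTCH1 on 1 of 2, whereas NOTCH2, NOTCH3, HES1, HEY1 and HEY2 had no probe set that passed the test. In all, 2 of the 28 probe sets rose and 6 fell (limma, Benjamini-Hochberg over all probe sets, threshold 0.05), against a background of 5.91% of all probe sets called in either direction, 2.18% that rose and 3.73% that fell. The median log2 difference (siKDM1A minus control) was 0.10 over the 28 and 0.014 over all probe sets. With the methods' one-way ANOVA, which does not share the spread across probe sets and calls 1.24% of all probe sets, 1 of the 28 passed, a probe set of RBPJ.

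**Figure D1:**
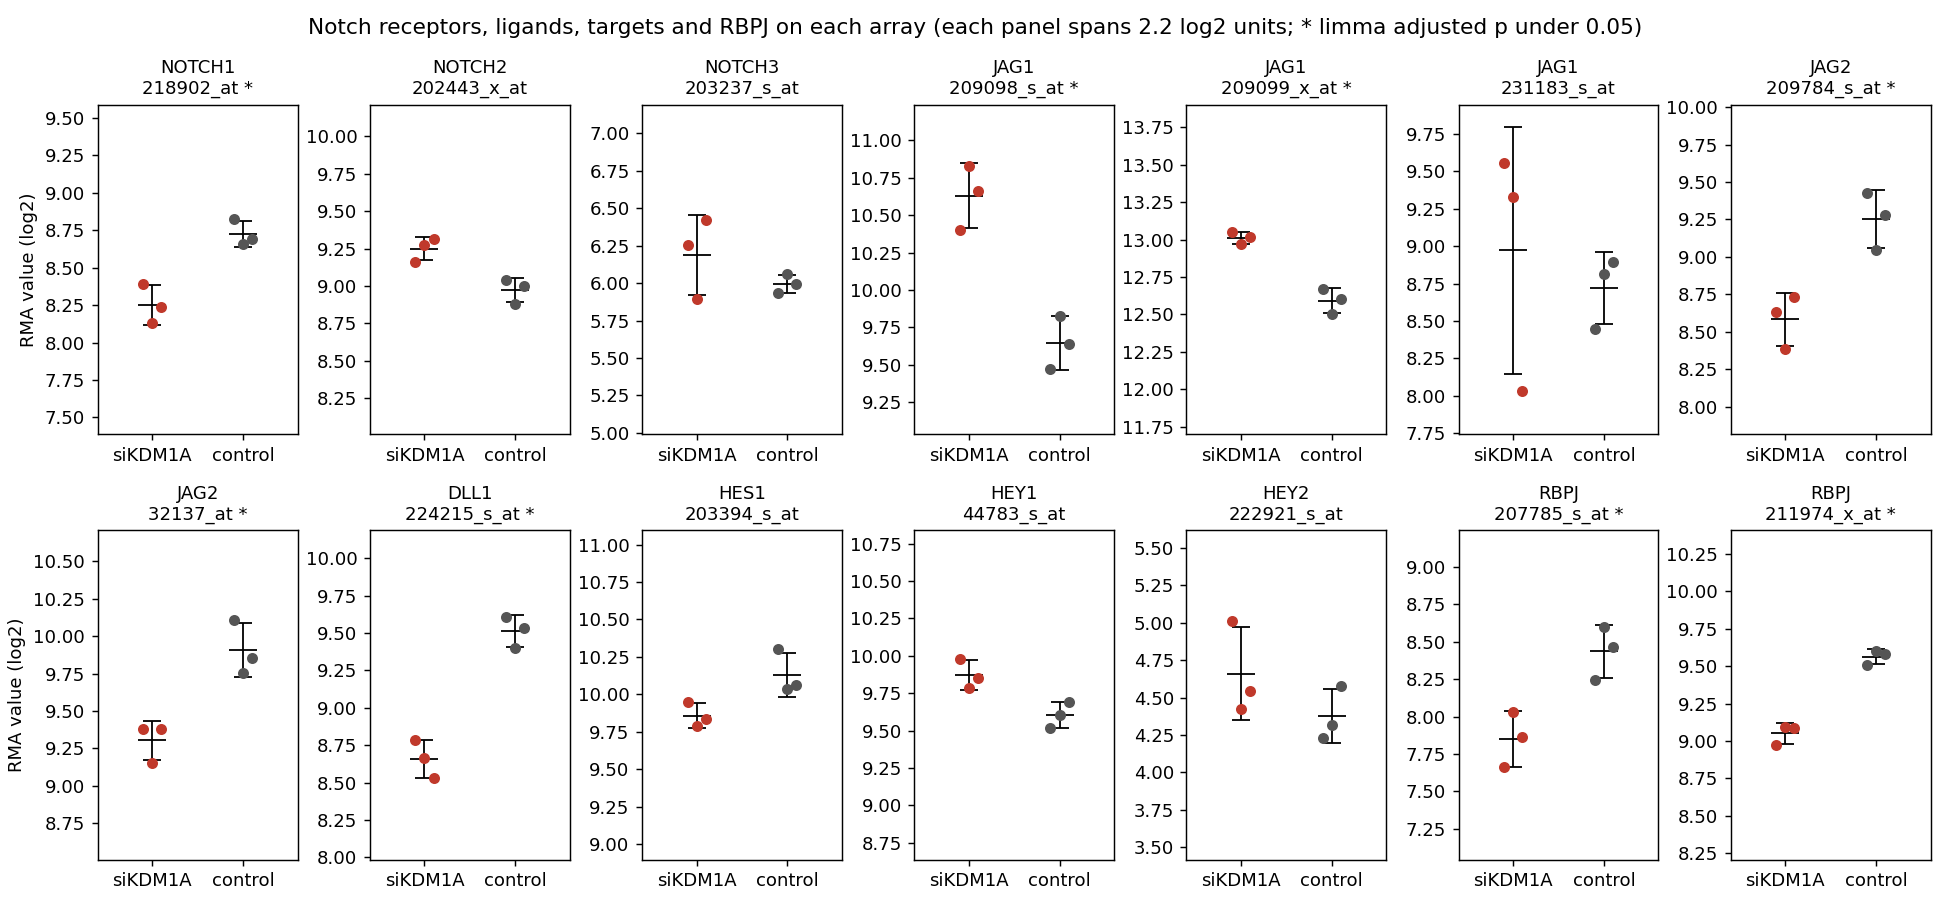
Log2 RMA values (vertical axis, each panel spanning 2.2 log2 units around its own centre) of the 8 probe sets that passed the test (*), the brightest probe set of each gene with none, and JAG1 231183_s_at, in siKDM1A (red) and control (grey) arrays. Points are single arrays and black bars are mean ± SD over the 3 arrays of a group. The groups do not overlap in any of the 8 called panels, and in JAG1 231183_s_at 1 siKDM1A array lies below all others.

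JAG1 (chr20:10637684-10673999) encodes Jagged-1, a ligand with a conserved receptor-binding domain. Probe set 209098_s_at measured 10.40, 10.83 and 10.66 in siKDM1A cells and 9.47, 9.83 and 9.64 in control cells. Every siKDM1A array lay above every control array, and the difference of 0.98 (SE 0.13, 95% interval 0.69 to 1.28) had a limma adjusted p of 0.0032. Probe set 209099_x_at, the brightest of the gene, measured 13.05, 12.97 and 13.02 in siKDM1A cells and 12.67, 12.50 and 12.60 in control cells. These values sit between percentile 99.5 and 99.7 of their arrays, near the top of the scale, and the groups did not overlap. The difference there was 0.42 (95% interval 0.23 to 0.61, 1.34-fold, limma adjusted p = 0.021). It missed the threshold without siKDM1A a (0.064), control b (0.096) or control c (0.091). Cross-hybridization of this _x_at probe set was not tested.

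The other 4 JAG1 probe sets differed in the same direction without passing the test. Probe set 216268_s_at measured 12.98, 13.02 and 12.92 in siKDM1A cells and 12.73, 12.50 and 12.58 in control cells, a difference of 0.37 (limma adjusted p = 0.051). It passed once dim probe sets were left out (0.041) or with an intensity trend and robust prior in the variance (0.0035). It did not pass with median centring (0.066), cyclic loess (0.057) or the array letter as a replicate block (0.08). All 6 fits that left out 1 array also missed the threshold (adjusted p 0.056 to 0.19). Probe set 209097_s_at averaged 5.19 in siKDM1A cells and 4.60 in control cells, again with no overlap (difference 0.60, 95% interval 0.21 to 0.99, limma adjusted p = 0.086). Both therefore separate the arrays as the called probe sets do. The remaining pair overlapped between the groups. Probe set 229924_s_at had a difference of 0.09, and 231183_s_at measured 9.56, 9.33 and 8.03 in siKDM1A cells and 8.45, 8.81 and 8.90 in control cells. Array c of the siKDM1A group lay below all others. The difference of 0.25 (95% interval -0.50 to 1.01, limma adjusted p = 0.75) depended on single siKDM1A arrays. It became 0.72 without siKDM1A c (limma adjusted p = 0.034), 0.07 without siKDM1A b and -0.04 without siKDM1A a.

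DLL1 (chr6:170282206-170291078) encodes Delta-like 1, a ligand of the other structural family, and it moved the opposite way. Probe set 224215_s_at measured 8.78, 8.66 and 8.53 in siKDM1A cells and 9.61, 9.40 and 9.53 in control cells. The highest siKDM1A array thus lay well below the lowest control array. The difference was -0.86 (SE 0.10, 95% interval -1.08 to -0.63), and its limma adjusted p of 0.0016 was the smallest among the 28 probe sets. It passed without any single array, with adjusted p between 0.0041 and 0.013. The gene's other probe set, 227938_s_at, lay below the median of every array and measured 5.04, 4.74 and 4.92 in siKDM1A cells and 4.81, 4.92 and 4.66 in control cells. It did not separate the groups (difference 0.11, limma adjusted p = 0.66).

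JAG2 (chr14:105140995-105168776) encodes Jagged-2, the second Jagged ligand, and both of its probe sets fell. Probe set 209784_s_at measured 8.63, 8.39 and 8.73 in siKDM1A cells and 9.43, 9.05 and 9.28 in control cells (difference -0.67, SE 0.13, 95% interval -0.95 to -0.39, limma adjusted p = 0.015). Probe set 32137_at measured 9.38, 9.15 and 9.38 in siKDM1A cells and 10.11, 9.76 and 9.86 in control cells (difference -0.60, SE 0.12, 95% interval -0.86 to -0.34, limma adjusted p = 0.017). Control a was the highest of the 6 arrays on both, and neither overlapped between the groups. The first missed the threshold without control a (0.055) or control c (0.072), and the second without siKDM1A b (0.053), control a (0.054) or control c (0.063).

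**Figure D2:**
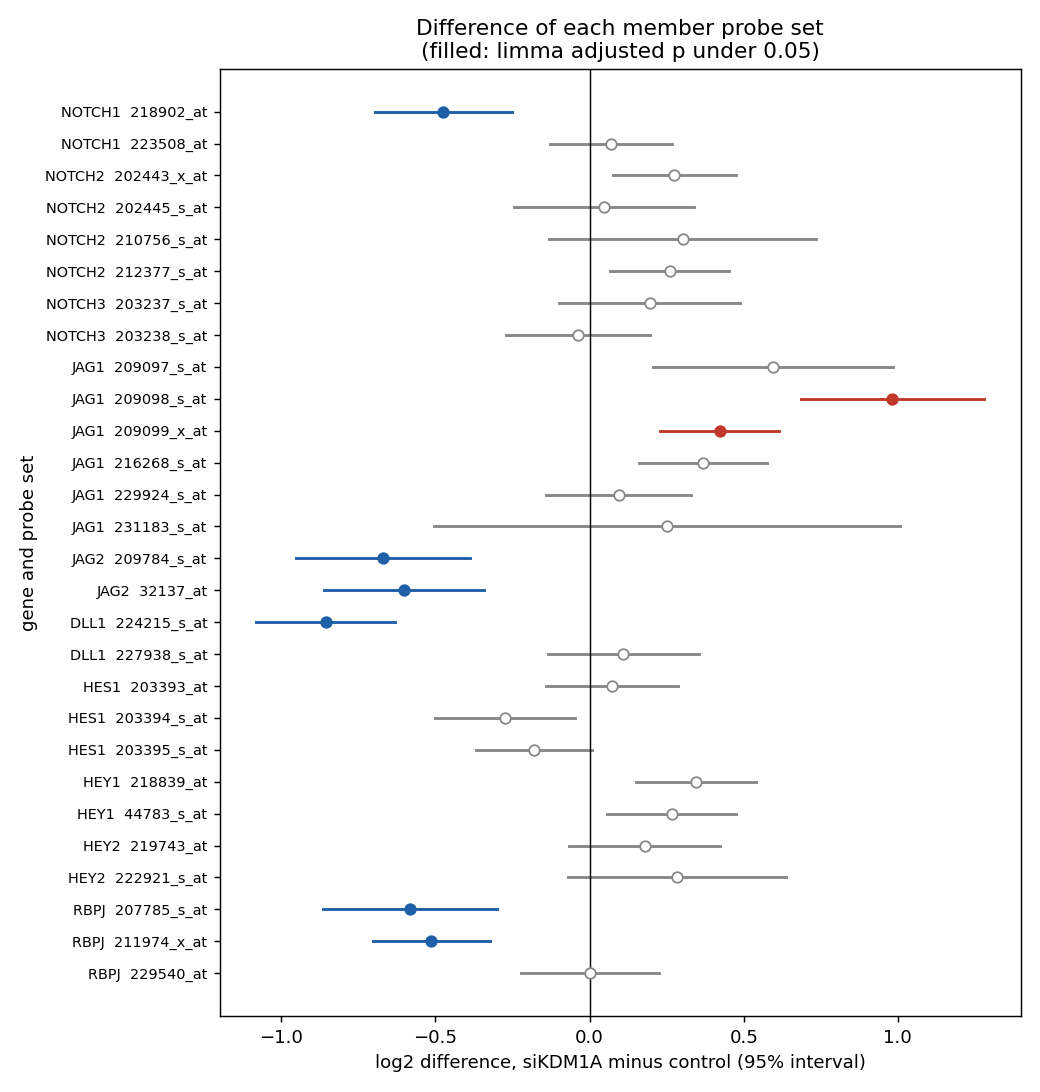
Log2 difference (siKDM1A minus control, horizontal axis) of each of the 28 probe sets, grouped by gene, with 95% interval from the limma fit. Filled points passed the test (red rose, blue fell), the 2 of JAG1 right of 0 and 6 of NOTCH1, JAG2, DLL1 and RBPJ left of it.

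Among the receptors, NOTCH1 (chr9:136494433-136546048) fell on its brighter probe set. Probe set 218902_at measured 8.39, 8.13 and 8.24 in siKDM1A cells and 8.82, 8.66 and 8.69 in control cells. The groups did not overlap, and the difference of -0.47 (SE 0.10, 95% interval -0.70 to -0.25) had a limma adjusted p of 0.023. The call was sensitive: it was lost in 5 of 6 fits that each left out 1 array (adjusted p 0.025 to 0.089) and with cyclic loess between arrays (difference -0.41, 0.061). The other probe set, 223508_at, measured 5.09, 5.14 and 5.08 in siKDM1A cells and 4.98, 5.15 and 4.97 in control cells, which overlap (difference 0.07, limma adjusted p = 0.74). Averaged over both probe sets, NOTCH1 differed by -0.20 (limma adjusted p = 0.11).

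NOTCH2 (chr1:119911553-120069662), a receptor known from granule neuron precursors, differed upwards on all 4 probe sets, of which 0 passed by limma or ANOVA. Its brightest, 202443_x_at, measured 9.16, 9.27 and 9.31 in siKDM1A cells and 9.04, 8.88 and 9.00 in control cells (difference 0.28, 95% interval 0.07 to 0.48, limma adjusted p = 0.12). Probe set 212377_s_at measured 8.80, 8.91 and 8.83 in siKDM1A cells and 8.66, 8.59 and 8.50 in control cells (difference 0.26, limma adjusted p = 0.13). Both separated the arrays of the groups, and both had an unadjusted p under 0.05, the only ones of the 4 to do so. At that threshold 7.84% of all probe sets were higher and 11.0% lower. The overlapping pair, 202445_s_at and 210756_s_at, differed by 0.05 and 0.30. A further probe set that names NOTCH2 together with its NOTCH2NL copies was left out, and cross-hybridization with those near-identical copies was not tested. NOTCH3 (chr19:15159038-15200995) measured 6.25, 5.90 and 6.42 in siKDM1A cells and 5.93, 6.06 and 5.99 in control cells on 203237_s_at. The siKDM1A arrays lay on either side of the control arrays there (difference 0.19, 95% interval -0.10 to 0.49, limma adjusted p = 0.48), and 203238_s_at differed by -0.04.

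RBPJ (chr4:26105449-26435131), the protein through which all Notch receptors reach DNA, fell on both of its bright probe sets. Probe set 211974_x_at measured 8.97, 9.09 and 9.09 in siKDM1A cells and 9.51, 9.60 and 9.58 in control cells. The arrays within each group were close together, and the difference of -0.51 (SE 0.08, 95% interval -0.70 to -0.32, 1.43-fold lower) had a limma adjusted p of 0.0081 and an ANOVA adjusted p of 0.045. It passed without any single array (adjusted p 0.018 to 0.049). Cross-hybridization of this _x_at probe set with other transcripts was not tested. Probe set 207785_s_at measured 7.66, 8.03 and 7.86 in siKDM1A cells and 8.24, 8.60 and 8.46 in control cells (difference -0.58, SE 0.13, 95% interval -0.87 to -0.30, limma adjusted p = 0.027). It was more scattered, with array a lowest and array b highest in both groups, and missed the threshold in 4 of 6 fits that left out 1 array (adjusted p 0.028 to 0.11). The third, 229540_at, was dimmer than the lower quartile on all 6 arrays, and its adjusted p was 1.

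None of the 7 probe sets of the target genes passed the test by limma or by ANOVA. At an unadjusted p under 0.05, 2 of the 7 were higher and 1 lower, where 7.84% of all probe sets were higher and 11.0% lower. HES1 (chr3:194136148-194138732) has 2 TGGGAA matches on its own strand in its promoter window. It measured 9.95, 9.79 and 9.84 in siKDM1A cells and 10.30, 10.03 and 10.06 in control cells on its brightest probe set, 203394_s_at. Every siKDM1A array was below every control array there (difference -0.27, 95% interval -0.50 to -0.05, limma adjusted p = 0.18). The same held on 203395_s_at, with 8.72, 8.59 and 8.58 in siKDM1A cells and 8.83, 8.81 and 8.78 in control cells (difference -0.18, limma adjusted p = 0.29). The third HES1 probe set, 203393_at, was dimmer than the lower quartile on all 6 arrays and differed by 0.07 (limma adjusted p = 0.75).

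HEY1 lay on the other side. Probe set 218839_at measured 9.15, 9.11 and 9.15 in siKDM1A cells and 8.68, 8.85 and 8.84 in control cells (difference 0.34, 95% interval 0.15 to 0.54, limma adjusted p = 0.051). Probe set 44783_s_at, the brightest, measured 9.98, 9.78 and 9.85 in siKDM1A cells and 9.51, 9.61 and 9.69 in control cells (difference 0.27, 95% interval 0.06 to 0.48, limma adjusted p = 0.15). Both probe sets put all siKDM1A arrays above all control arrays. The first passed with cyclic loess (0.025), without dim probe sets (0.04) and with the same trend and prior (0.027). It did not pass with median centring (0.074) or with the array letter as a replicate block (0.085). It also missed the threshold in all 6 fits that left out 1 array (adjusted p 0.091 to 0.17). The mean of both probe sets passed in a fit of 1 value per gene (difference 0.31, limma adjusted p = 0.034). HEY2 (chr6:125749632-125761269), for which both probe sets lay below the median of every array, measured 5.01, 4.42 and 4.54 in siKDM1A cells and 4.23, 4.32 and 4.58 in control cells on 222921_s_at. These overlap (difference 0.28, 95% interval -0.07 to 0.64, limma adjusted p = 0.39), as do those of 219743_at (difference 0.18).

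Over the 28 probe sets, the siKDM1A arrays lay wholly above the control arrays on 8 and wholly below on 8, while 12 overlapped. Among all probe sets 11.1% lay wholly above and 13.4% wholly below. Of the 16 separated probe sets, 8 did not pass the test. Represented by its brightest probe set, 1 of the 10 genes rose, 4 fell and 5 did not pass, where 3.45% of all genes rose and 5.46% fell.

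The rest of the pathway was read from a list of 69 genes grouped by role, of which 65 had a probe set of their own. On the brightest probe set of each, 3 rose, 7 fell and 55 did not pass, with a median difference of -0.09, against 0.007 over all genes. KDM1A itself, the target of the siRNA, is 1 of the 7. Over all genes, each on its brightest probe set, 3.45% rose and 5.46% fell, and the counts by role below stand beside those shares. Among 13 ubiquitin ligases and trafficking proteins, 2 fell. NEURL1B, a ubiquitin ligase that promotes ligand endocytosis, measured 5.15, 5.39 and 5.60 in siKDM1A cells and 6.35, 6.45 and 6.25 in control cells, 1.96-fold lower (limma adjusted p = 0.0023). MIB2, another ligase of ligands, measured 5.75, 6.01 and 5.87 in siKDM1A cells and 6.51, 6.47 and 6.49 in control cells on 241541_at (limma adjusted p = 0.0052). Neither gene overlapped between the groups, but the other 4 MIB2 probe sets did not pass, with differences of -0.29 to 0.17.

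Of 5 glycosylation enzymes, 1 fell. LFNG, the Fringe enzyme that modifies Notch receptors and shifts which ligands they respond to, measured 9.44, 9.23 and 9.33 in siKDM1A cells and 10.05, 9.88 and 10.03 in control cells on 228762_at. The arrays were clearly separated (difference -0.65, limma adjusted p = 0.0047), whereas its other probe set differed by -0.25 (limma adjusted p = 0.20). Among 8 receptor cleavage genes, 7 coactivators and 6 further receptors and ligands, limma and ANOVA called 0. At an unadjusted p under 0.05, 1 cleavage gene was higher and 1 lower, 1 coactivator was higher and 2 lower, and 3 of the further receptors and ligands were higher. Over all genes 9.75% were higher and 14.4% lower at that threshold. Their median differences were 0.016, -0.25 and 0.20.

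Of 13 corepressors other than KDM1A, 1 rose and 1 fell on the brightest probe set. At an unadjusted limma p under 0.05, 1 of the 13 was higher and 6 were lower. Over all genes 9.75% were higher and 14.4% lower at that threshold. The median difference of the 13 was -0.19. L3MBTL3, a methyl-lysine reader known to bind RBPJ and to recruit KDM1A to Notch target genes, measured 6.91, 7.09 and 7.04 in siKDM1A cells and 5.96, 5.99 and 6.15 in control cells on 229393_at. All siKDM1A arrays were higher (difference 0.98, 95% interval 0.77 to 1.19, 1.97-fold, limma adjusted p = 0.00057). The Groucho-type corepressor TLE3 fell on all 4 of its probe sets, with differences of -0.47, -0.38, -0.58 and -0.61 and limma adjusted p of 0.026, 0.049, 0.033 and 0.045. On the brightest (difference -0.58) the call was lost in 5 of 6 fits that left out 1 array (adjusted p 0.016 to 0.13) and with cyclic loess (0.064). TLE1 fell on 203222_s_at (difference -0.44, limma adjusted p = 0.049) but did not pass on its brightest probe set (-0.33, 0.086).

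Among 12 further genes listed as targets, 2 rose and 2 fell on the brightest probe set. Whether each of them responds to Notch in these cells was not tested. HES2 fell on 214521_at (difference -0.45, limma adjusted p = 0.024), below the median of every array, but did not pass on its brightest (-0.34, 0.061). HES6, which in mice opposes HES1, measured 6.86, 6.85 and 6.91 in siKDM1A cells and 7.44, 7.49 and 7.59 in control cells (difference -0.63, limma adjusted p = 0.003). NRARP, a feedback inhibitor that binds the Notch transcription complex, measured 7.91, 7.69 and 7.83 in siKDM1A cells and 8.34, 8.32 and 8.33 in control cells (difference -0.52, limma adjusted p = 0.0095). Control arrays of NRARP were nearly level, and its call was lost without control c (0.052). BHLHE41, a circadian repressor, rose on 221530_s_at (8.47, 8.43 and 8.56 in siKDM1A cells, 7.98, 7.80 and 7.85 in control cells, limma adjusted p = 0.0048), while its other 3 probe sets did not pass. CDKN1A, the cell cycle inhibitor p21, rose by 0.52 (limma adjusted p = 0.014), a call lost without control b (0.058) or control c (0.072).

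**Figure D3:**
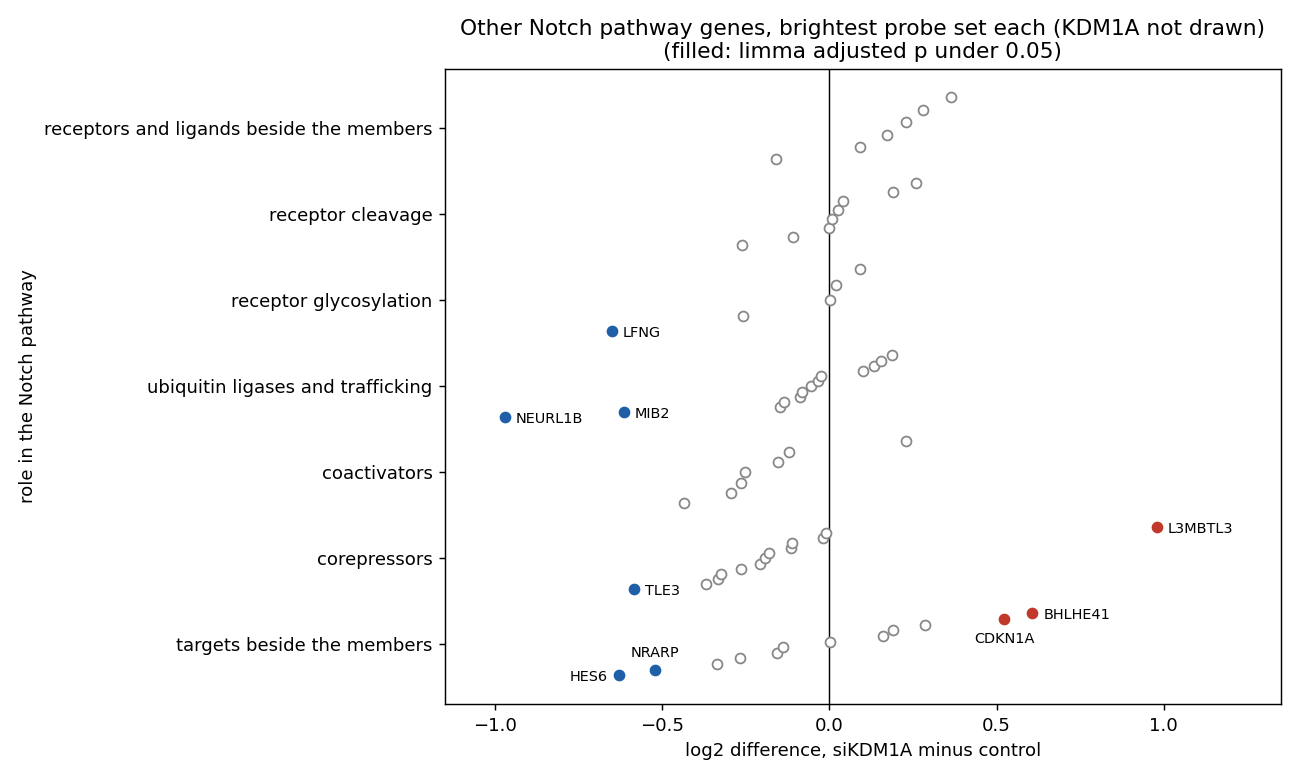
Log2 difference (siKDM1A minus control, horizontal axis) of the 64 measured pathway genes other than KDM1A, by role (vertical axis), on the brightest probe set of each. Filled points passed the limma test (red rose, blue fell), and L3MBTL3 at 0.98 and NEURL1B at -0.97 lie farthest from 0.

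The genes whose pattern over the 6 arrays was most like that of DLL1 224215_s_at were LGR5, a receptor for R-spondins (root mean square difference of mean-centred log2 values 0.030), TRIM24, a chromatin reader (0.034), and KAT6B, a histone acetyltransferase (0.039). LGR5 measured 7.01, 6.89 and 6.71 in siKDM1A cells and 7.87, 7.67 and 7.80 in control cells. As with DLL1, siKDM1A a was the highest of its group and control b the lowest of its own. This likeness adds nothing beyond the choice, because LGR5 was picked by its pattern over these same arrays.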

How the data were processed

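RNA of ONS-76 cells was hybridized to 6 Affymetrix U133 Plus 2.0 arrays, 3 siKDM1A and 3 control, grouped by the labels. The authors deposited log2 values of 54675 probe sets after RMA in Partek, the version of which was not given in the sources used here. RMA gives the arrays a common distribution, which largely hides a change shared by most genes. No scanner files were used, and the number of arrays limits the precision.

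After 62 Affymetrix controls were left out, siKDM1A was compared with control in R 4.3.3 with limma 3.58.1 (lmFit, eBayes, two-sided), and p-values were adjusted by Benjamini-Hochberg across the 54613 remaining probe sets (threshold 0.05). The steps were tested on simulated data. Genes were named from the platform annotation, in which 41091 probe sets name 1 gene and 41037 of these have an Entrez ID in the RefSeq table. The members and lists were chosen with earlier results of these data known. All member probe sets were given, with array values for those that passed and for the brightest probe set of a gene with none; array values of further member probe sets were chosen after they were seen. Listed pathway genes that passed on their brightest probe set were named, at most 4 per role, with the 3 genes nearest to the member of smallest p. HES2 and TLE1, which passed on another probe set only, were named as well. Each gene's brightest probe set was that with the highest mean over the arrays. Alternatives were median centring, cyclic loess, leaving out dim probe sets (mean below the lower quartile), an intensity trend with a robust prior, a replicate block, leaving out each array, the methods' one-way ANOVA, 1 mean per gene and leaving out probe sets ending in _x_at.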

Additional observations from a re-analysis of the deposited data

How the results depend on the processing

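Among the 28 member probe sets, 2 rose and 6 fell. The count that rose was 4 without dim probe sets, 4 with an intensity trend and robust prior and 0 by the methods' ANOVA (8 at an unadjusted p under 0.05 by limma, where 7.84% of all probe sets were higher), and 1 to 3 when 1 array was left out. The count that fell was 1 by ANOVA and 2 to 5 when 1 array was left out. Over all probe sets, 1193 rose and 2037 fell, against 275 and 401 by ANOVA; leaving out 1 array gave 609 to 1103 that rose and 694 to 1563 that fell. Of the pathway genes 3 rose and 7 fell, against 1 and 2 by ANOVA, and 12 fell with the trend. Leaving out 1 array gave 2 to 3 and 5 to 8. Without probe sets ending in _x_at, 3 rose and 7 fell. The share of calls that were lower was 63.1%, 70.0% with median centring and 54.8% with cyclic loess, which moved the median of all differences by -0.028 and -0.009.

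Under these settings signs of member probe sets turned only where they had not passed. RBPJ 229540_at differed by 0.0005, by -0.028 with median centring and by -0.033 with cyclic loess. Leaving out 1 array gave -0.075 to 0.057 there, -0.058 to 0.17 on NOTCH2 202445_s_at, -0.13 to 0.029 on NOTCH3 203238_s_at, -0.041 to 0.72 on JAG1 231183_s_at and -0.0026 to 0.12 on HES1 203393_at. The cause was not tested.

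Deviations of same-lettered arrays correlated weakly, positively for a (0.11) and b (0.23) and negatively for c (-0.13), and 3 of 6 arrays correlated best with their own letter. With the letter as a replicate block 3 member probe sets rose and 6 fell, JAG1 209097_s_at being gained (limma adjusted p = 0.044), and 1080 and 1639 of all probe sets.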
